A study of Mus musculus with 6 samples.

Results

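Spdef and Galnt6 are 2 of the 61 genes in the table that the authors deposited for colon crypts of Smarcad1-KO mice, and both had lower mean expression in KO than in wild type (WT). They were selected on the deposited KO and WT means and on being listed at all, as a goblet cell transcription factor and an enzyme that builds mucin glycans. Because the table lists only genes that the authors called different between the genotypes with DESeq2 at a false discovery rate (FDR) under 0.05, the difference of both genes is how they came to be listed and is given here as a description, with no test. RNA-seq was made from epithelium isolated as whole crypts from male C57BL/6 mice, with 3 WT libraries and 3 KO libraries. In the KO mice (Villin-Cre with Smarcad1 fl/fl) a Cre transgene under the Villin promoter, which is active along the intestinal epithelium, removed exons of the chromatin remodeller gene Smarcad1 that encode residues needed to bind ATP, and the floxed line descended from a single targeted ES cell clone. The age at which crypts were taken, and whether the WT mice carried the floxed allele or the Cre transgene, are not given in the sources used here. The crypts were not sorted, so cells other than epithelium can contribute to the RNA.

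Goblet cells are the mucus-producing secretory cells of the crypt, and they cover the colon surface with a gel made chiefly of the mucin Muc2. Spdef is an ETS family transcription factor that acts late in the secretory lineage, after Atoh1, and is needed for goblet cells to mature and fill with mucin granules. Galnt6 belongs to the family of Golgi enzymes that attach the first sugar, N-acetylgalactosamine, to serine and threonine of mucins and other proteins, the step on which all mucin-type O-glycans are then built.

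The targeted gene was examined first, as a check on the labels. Smarcad1 had a mean log2 expression of 2.87 in KO and 4.58 in WT, so that the KO level was 30.7% of the WT level. The sum covers all exons of the gene, including those that were not deleted.

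Spdef lies on chromosome 17 from 27714352 to 27728951, minus strand, in GRCm38 (ENSMUSG00000024215). Its mean log2 expression was 8.95 in the 3 WT libraries and 8.29 in the 3 KO libraries. The KO mean was therefore 0.66 log2 units below the WT mean (-0.66), which puts the KO level at 63.1% of WT, or WT 1.58-fold above KO. Galnt6 lies on chromosome 15 from 100691813 to 100729376, minus strand (ENSMUSG00000037280). Its mean log2 expression was 8.07 in WT and 7.64 in KO, a difference of -0.42, with the KO level at 74.6% of WT and WT 1.34-fold above KO. The decrease of Spdef was the larger of the pair, with -0.24 log2 units for the Spdef difference minus the Galnt6 difference. The deposited table gives 1 mean per genotype and no value per library or depth. The spread between replicates, and whether the libraries of both genotypes overlapped, were therefore not analysed here, and the difference between both decreases was not tested. In bulk crypts, a change in the mix of cells, such as fewer goblet cells, and less Spdef or Galnt6 RNA in each cell cannot be told apart.

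The promoters are shown because both genes were lower in KO and because the family to which Spdef belongs binds short DNA sites with a GGAA or GGAT core. The 250 bases before the start of each gene are printed 5′ to 3′ on the strand of the gene, from RefSeq on GRCm38.p6, and capitals mark the letters GGAA or GGAT on either strand, read as TTCC or ATCC where the match is on the other strand. The Spdef window is chr17:27728952-27729201 and the Galnt6 window is chr15:100729377-100729626, both on the minus strand, and both starts are the ones that the deposited table gives.
Spdef: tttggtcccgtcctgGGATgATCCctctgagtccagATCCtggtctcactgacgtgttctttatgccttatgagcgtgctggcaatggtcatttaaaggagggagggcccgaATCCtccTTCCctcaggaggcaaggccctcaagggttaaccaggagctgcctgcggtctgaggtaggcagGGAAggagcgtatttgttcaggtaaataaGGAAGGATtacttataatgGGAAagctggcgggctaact
Galnt6: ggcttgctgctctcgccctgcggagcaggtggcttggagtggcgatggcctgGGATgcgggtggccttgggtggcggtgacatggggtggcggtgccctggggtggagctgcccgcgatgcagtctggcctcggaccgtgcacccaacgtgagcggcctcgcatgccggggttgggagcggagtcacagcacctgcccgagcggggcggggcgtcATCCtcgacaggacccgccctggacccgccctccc

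The Spdef promoter held 9 such cores, 4 with GGAA and 5 with GGAT, of which a GGAA and a GGAT directly adjoined each other, from position -39 to -32 relative to the start. The median over 32841 RefSeq promoters of the same length was 4 cores, 97.9% held at least 1, and 4.32% held as many as Spdef or more. The Galnt6 promoter held 2 cores, both GGAT, which begin at positions -198 and -35, and 91.3% of all promoters held as many or more. RefSeq gives Galnt6 an internal start as well, with 6 cores in its window, 4 with GGAA and 2 with GGAT that overlap each other, and 28.9% of all promoters held as many or more. The longer letters CCGGAT and CCGGAA, held by 4.94% and 12.0% of all promoters, were in none of these 3 windows.

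**Figure D1:**
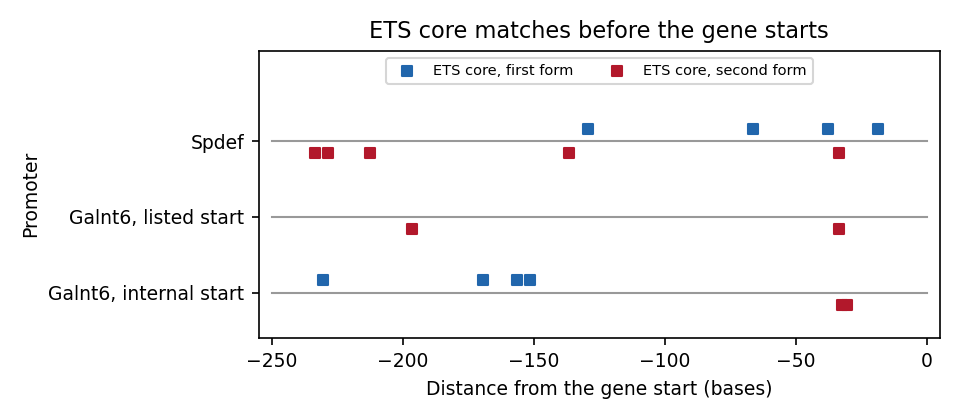
Positions of ETS core matches in the 250 bases before the start of Spdef, before the Galnt6 start of the deposited table, and before an internal Galnt6 start. The x axis is the distance from the start in bases, blue squares above each line are the first form (GGAA, either strand) and red squares below it the second (GGAT, either strand); Spdef holds 9 matches, Galnt6 2 at the listed start and 6 at the internal start.

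In base composition the promoters at the listed starts differed. That of Galnt6 had 72.8% G and C and 22 CpG sites, more CpG than 85.2% of all promoters, whereas that of Spdef had 52.8% G and C and 7 CpG sites, beside medians of 52.4% and 6 over all promoters. The window of the internal Galnt6 start was nearer to that of Spdef, with 59.6% G and C and 10 CpG sites. The Galnt6 window at the listed start also held 3 GC boxes (GGGCGG, in 32.7% of all promoters) and 2 E-boxes (CANNTG, in 66.2%). The Spdef window held neither, but had 1 match to TTTATG, the letters that intestinal CDX factors favour, which 10.8% of all promoters hold. The letters TATAAA, in 12.4% of all promoters, were in neither window. Matches were counted on both strands, and they describe letters, not binding. GGAA and GGAT were counted apart, whereas each longer form contains one of them and so overlaps it by construction.

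Of the 61 listed genes, 27 (44.3%) were lower in KO, and Spdef and Galnt6, which were selected on these means, are among them. The number of genes that the authors tested is not used here, so this share describes the list. Among the 27 lower genes the median difference was -0.90, and the deposited values ran from -3.48 for Grm4, a gene of low level that a pseudocount of 1 moved to -2.26, to -0.42 for Galnt6. Galnt6 had the smallest difference of all 61 genes in either direction, just below the smallest increase, 0.42 for the monoamine oxidase gene Maoa. Spdef held rank 22 of the 27 decreases by size, with 21 genes showing a larger decrease and 5 a smaller one.

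**Figure D2:**
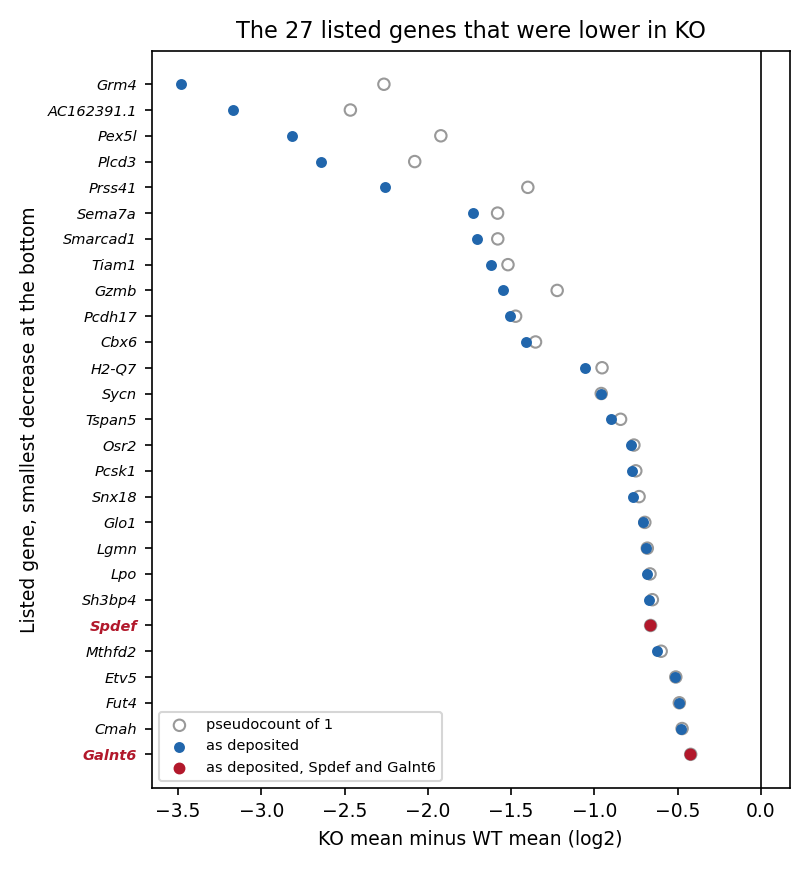
KO mean minus WT mean on the log2 scale (x axis) for the 27 listed genes that were lower in KO (y axis), ordered by size. Filled points are the deposited means, red for Spdef and Galnt6 and blue for the others, and open circles are the same after a pseudocount of 1; Galnt6 at -0.42 is the smallest decrease and Spdef at -0.66 holds rank 22, and for both the circle lies on the point.

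Their differences were small within the list and their levels were high. Small differences pass an FDR limit more readily at high levels, so listing itself favours this pairing. Spdef had the highest deposited WT mean of the 61 genes and the second highest KO mean after Maoa. Galnt6 held rank 4 in WT and rank 7 in KO. Levels of different genes can be compared only per length, and whether the deposited values were already scaled by transcript length is not settled by the sources used here. The merged exons of Spdef cover 2305 bases and those of Galnt6 3871 bases in GENCODE M21. When the log2 of the exon length in kilobases was subtracted, which is right only for values not yet scaled, Spdef was at 7.74 in WT and 7.08 in KO, and Galnt6 at 6.11 in WT and 5.69 in KO. On this per-kilobase scale, over the 57 listed genes with a matched length, Spdef held rank 2 in WT and 3 in KO, and Galnt6 held rank 5 in WT and 8 in KO. On both scales Spdef was the higher of the pair in both genotypes, by 0.88 log2 units in WT and 0.64 in KO as deposited, and by 1.63 and 1.39 per kilobase. For comparison, the median deposited mean of the list was 4.96 in WT and 5.03 in KO.

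**Figure D3:**
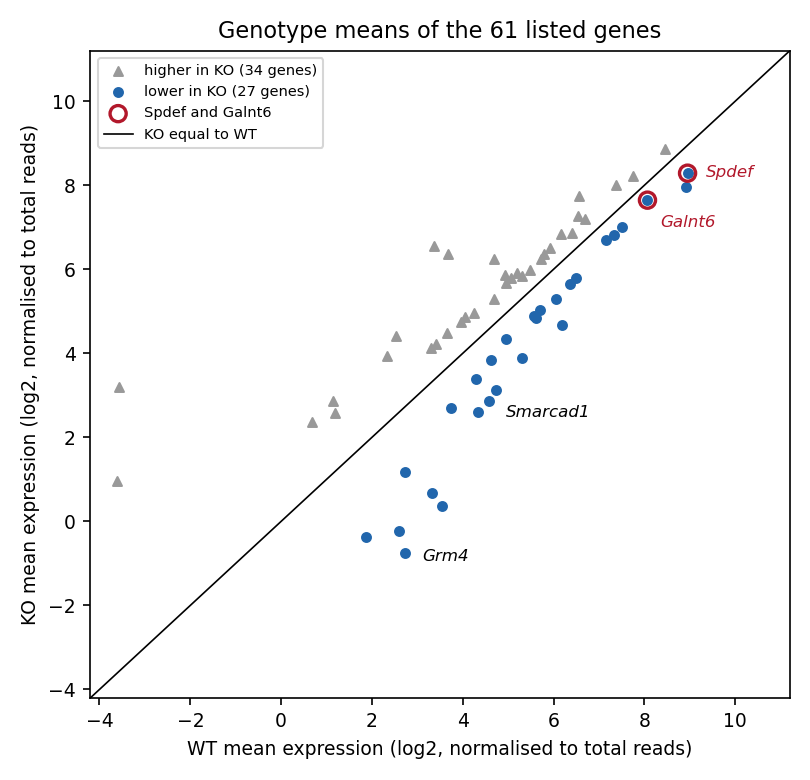
WT mean (x axis) against KO mean (y axis) of the 61 listed genes, both as log2 values normalised to total reads, with the line of equal means. Blue points are the 27 genes that were lower in KO and grey triangles the 34 that were higher; Spdef (WT 8.95, KO 8.29) and Galnt6 (WT 8.07, KO 7.64), ringed in red, lie at the upper end close to the line, while Smarcad1 and Grm4 lie farther below it.

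The listed genes nearest to each member in difference and in level were then named, by a fixed number of 3 each, with likeness measured as the distance on the log2 scale, for which the 2 genotype means of a gene were the only points. Nearest to the Spdef difference were Sh3bp4, an endocytic sorting gene, at -0.67, the secreted peroxidase gene Lpo at -0.68 and the lysosomal protease gene Lgmn at -0.69. All 3 had lower deposited means than Spdef, Lgmn with 6.35 in WT and 5.66 in KO. Nearest to the Galnt6 difference were Cmah at -0.48, Fut4 at -0.49 and Etv5 at -0.51. Cmah hydroxylates the sialic acid donor CMP-N-acetylneuraminic acid, Fut4 adds fucose to glycan chains, and Etv5 is an ETS transcription factor. Their deposited means were 7.16 in WT and 6.68 in KO for Cmah and 7.33 and 6.82 for Etv5, and Fut4 had 7.50 in WT. The FDR limit favours high levels for small decreases, so these levels are no separate likeness to Galnt6. Per kilobase, WT was at 3.75 for Cmah, 5.29 for Etv5 and 5.47 for Fut4, beside 6.11 for Galnt6. These 3 genes and Galnt6 were the 4 smallest decreases of the list.

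**Figure D4:**
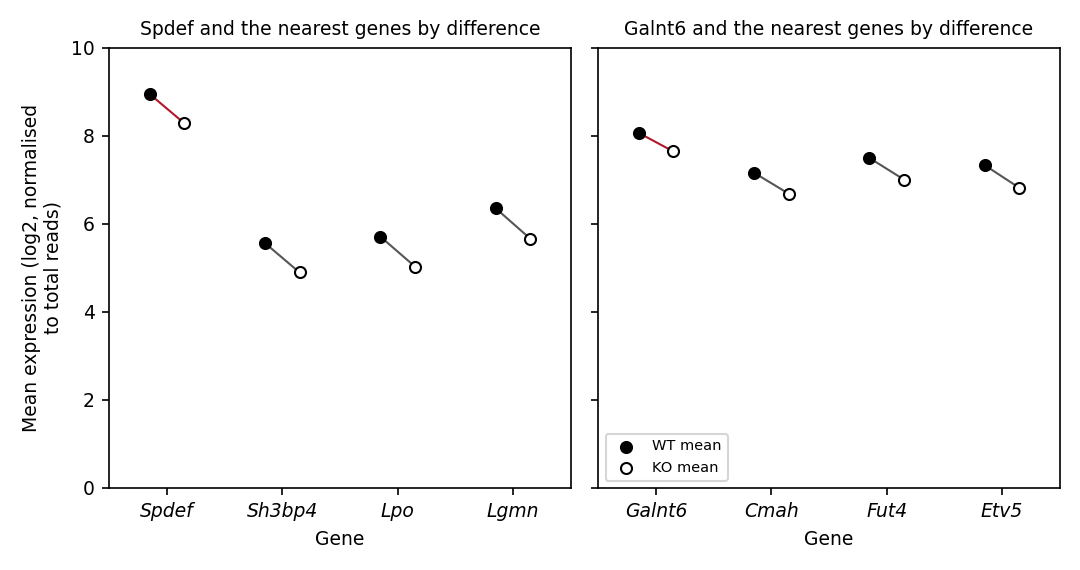
Mean expression (y axis, log2 normalised to total reads) in WT (filled) and KO (open) for Spdef, Galnt6 and the 3 listed genes nearest to each in KO minus WT difference (x axis). The lines in a panel are nearly parallel because the genes were picked for like differences, from -0.66 to -0.69 on the left and from -0.42 to -0.51 on the right.

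In mean level over both genotypes, as deposited, the genes nearest to Spdef were Maoa, Sycn and Ahnak, and those nearest to Galnt6 were Ahnak, Slc16a1 and Sycn. Of these, Sycn, which encodes the secretory granule protein syncollin, was lower in KO, at 7.95 against 8.91 in WT. The other 3 were higher in KO: Maoa at 8.87 against 8.44, Ahnak, a large scaffold protein gene, at 8.22 against 7.75, and Slc16a1, which encodes a monocarboxylate transporter, with a difference of 0.63 from a WT mean of 7.37. This likeness holds for the deposited means only: per kilobase, WT was at 9.75 for Sycn and 3.43 for Ahnak, beside 7.74 for Spdef and 6.11 for Galnt6.

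Other genes of the goblet and glycan programmes were looked up in the list. Of 21924 protein-coding gene symbols in GENCODE M21, 56 (0.255%) were listed, so a count of 0 is near that background for gene lists of this size. A count of 1 is a larger share than the background, but rests on a single gene, and nothing is read from it. Of the other 17 goblet cell genes, among them Muc2, Tff3, Clca1, Fcgbp, Agr2 and Atoh1, 0 were listed, which says only that a gene did not pass the authors' FDR or was not tested. Of 20 genes for enzymes of the family that starts O-glycans, 19 of them in GENCODE M21, Galnt6 alone was listed, and of 9 mucin genes 0. Of 23 genes for extending or capping glycans, among them Fut8, which acts on N-glycans, 1 was listed, Fut4, with a KO level of 71.1% of WT. Of 29 other ETS and secretory lineage genes, 1 was listed, Etv5, with a KO level of 70.0% of WT. These 29 include the Notch receptor and ligand genes Notch1, Dll1 and Dll4, and some genes also counted as goblet cell genes, such as Atoh1. Beside Spdef and Galnt6, which were selected on this contrast, these lists thus gave 2 listed genes, too few to describe a shared direction. Glycan genes outside these lists, chosen after their values were seen, went both ways: Cmah was lower, whereas Mgat4c, from a family that branches N-glycans, was higher, at 7.19 in KO against 6.68 in WT.

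Markers of other cells gave few values to set beside these. Of 38 markers of absorptive, stem and dividing, enteroendocrine, tuft, deep crypt secretory and Paneth cells, 0 were listed. Outside these lists, and named after its values were seen, Pcsk1, a prohormone convertase gene typical of enteroendocrine cells, was listed with 4.85 in KO against 5.62 in WT, lower like Spdef and Galnt6. There were 0 listed genes among 10 stromal and endothelial markers. Among 14 immune markers there was 1, Gzmb, a granzyme of cytotoxic lymphocytes, whose mean log2 expression was 1.17 in KO against 2.72 in WT. The levels of Gzmb and Pcsk1 thus lay in the same direction as Spdef and Galnt6, and their part in the decrease of Spdef and Galnt6 was not tested.

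The surroundings of both genes in the genome were examined last. Spdef had 7 other listed genes on its chromosome, 4 lower and 3 higher in KO, and 1 of them lay within 1 Mb. This was Grm4, a metabotropic glutamate receptor gene, whose start lies 216 kb from that of Spdef on the same strand, with 6 protein-coding genes between them. Mean log2 expression of Grm4 was -0.75 in KO against 2.74 in WT, at a level far below that of Spdef. Its difference of -3.48 was the largest decrease of the list as deposited, but with a pseudocount of 1 it was -2.26, smaller than the -2.46 of AC162391.1, and Grm4 is left out when a mean log2 of at least 1 is required. The next nearest was the glyoxalase gene Glo1, 2.88 Mb away, with a difference of -0.71. Galnt6 had 6 other listed genes on its chromosome, 2 lower and 4 higher. The single gene within 1 Mb was Mettl7a1, a methyltransferase-like gene 425 kb away on the other strand, with 14 protein-coding genes between, and it was higher in KO, at 6.84 against 6.16 in WT.

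**Figure D5:**
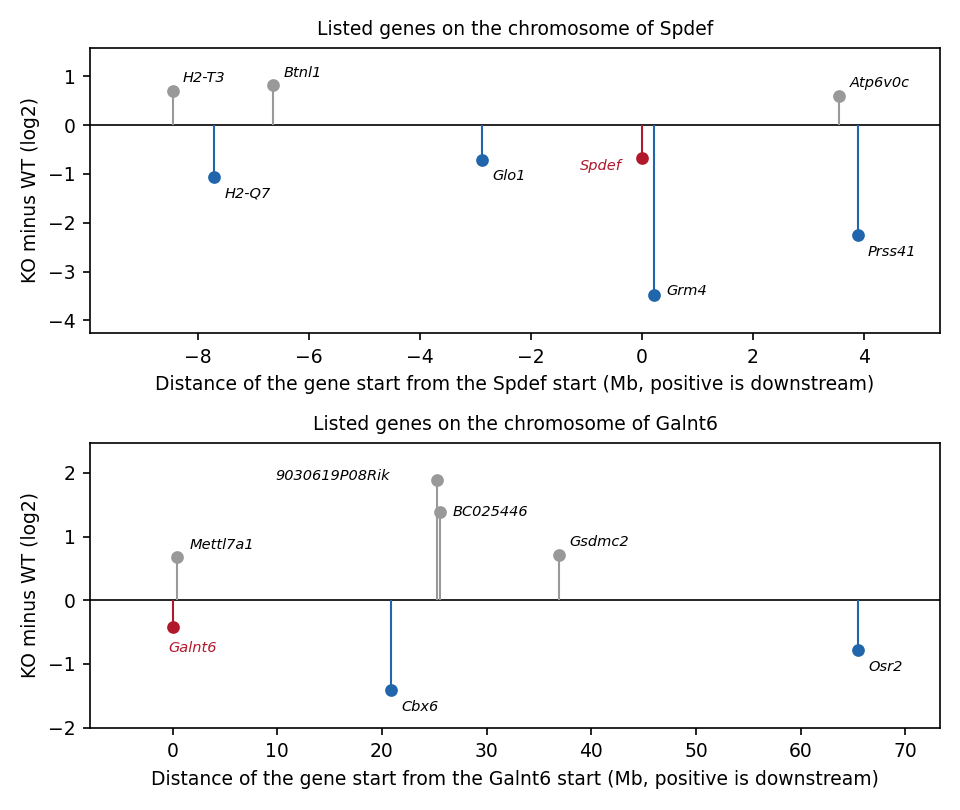
KO minus WT difference (y axis, log2) of the listed genes on the chromosome of Spdef (top) and of Galnt6 (bottom), by the distance of their starts from that of Spdef or Galnt6 (x axis, Mb, positive in the direction of transcription). Red marks Spdef and Galnt6, blue other lower genes and grey higher genes; Grm4 at -3.48 as deposited is the nearest to Spdef and Mettl7a1 at 0.68 the nearest to Galnt6.

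The exons were examined for reads that could belong to other genes. GENCODE M21 gives Spdef 6 transcripts, with no other gene across it on either strand, and 0 of the 1872 words of 50 bases in its longest transcript occur in a transcript of another gene. For Galnt6, with 3 transcripts, 304 of 3749 such words (8.11%) do, and all 304 lie in Galnt6os, an antisense gene that runs across it from 100695773 to 100704896 on the plus strand. The exons of Galnt6os cover 441 bases, or 11.4%, of the merged Galnt6 exons. The study's methods name no library kit for the whole crypt libraries, and whether counting used the strand is not stated. Reads of Galnt6os in this stretch therefore cannot be told apart from those of Galnt6. No word of the other Galnt genes was shared.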

How the data were processed

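Gene expression was measured by RNA-seq in 3 WT and 3 KO colon crypt libraries, grouped by sample title. Per the study's methods and the submitters' processing notes, the authors trimmed reads with Trim Galore 0.4.2, mapped them to GRCm38 with HISAT2 2.0.1, and counted uniquely mapped reads over exons of merged transcript isoforms in SeqMonk. The deposited values are log2 means, 1 per genotype, normalised to total reads by the authors. The methods name RPKM for fold changes, so a scaling by length is not excluded; it cancels in the difference of a gene. The deposited FDR column holds the authors' own DESeq2 comparison, whose values are not used; it was checked that 0 of the 61 genes were at or above 0.05. Depth is unknown from these values.

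The difference is the KO mean minus the WT mean. No test was made, since the members were chosen by this contrast and values of single libraries, which a supplementary table of the study holds, were not used here. Members and gene lists were chosen with earlier results of these data known. The genes named are Spdef, Galnt6, Smarcad1, the 3 nearest in difference and in level to each, the nearest in the genome and those within 1 Mb, and listed members of the gene lists; any other gene was named after its values were seen. Of the listed genes, 57 matched GENCODE M21 by symbol, place and strand. Promoters came from RefSeq, GRCm38.p6. The scripts were tested on simulated data. As alternatives, 1 or 0.1 was added to the linear means, genes with a mean log2 under 1 were left out, and differences were centred on the median of the list. Python 3.11.15 with numpy 2.4.6, pandas 2.3.3 and matplotlib 3.10.9 was used.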

Additional observations from a re-analysis of the deposited data

How the results depend on the processing

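None of the alternatives could turn the direction of either gene, so they do not test it. A pseudocount of 1 gave -0.66 for Spdef and -0.42 for Galnt6, as did 0.1. Relative to the median difference of the list, 0.51, the values were -1.17 for Spdef and -0.93 for Galnt6, a shift set by the 34 higher and 27 lower genes that the authors selected. Ranks among the lower genes, chosen after seeing the data because the planned ranks among higher genes had no value, went from 22 to 21 for Spdef and stayed at 27 for Galnt6 with a pseudocount of 1. With a mean log2 of at least 1, which keeps 25 lower genes, they were 20 and 25. No paired analysis was possible because the columns of the deposited table hold 1 mean per genotype and carry no replicate number. For the same reason no replicate was left out; this is a limit of the table used here, not of the study, which had 3 libraries per genotype. Depth and replicate spread, which limit both differences, were not analysed here.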
